A study of Vulpes vulpes with 8 samples.

Results

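The genes described here belong to contractile stromal cells and to the cells that wrap small vessels. ACTA2, TAGLN, MYH11, DES, CNN1 and MYL9 encode parts of the contractile and cytoskeletal apparatus of smooth muscle and myofibroblasts, and RGS5, PDGFRB and NOTCH3 are used as marks of pericytes and other mural cells. They were taken as all probe sets to which the platform annotation gives 1 of these 9 symbols alone, which gave 19 of the 42924 probe sets on the array that are not controls. A further 2 probe sets that carry a second symbol beside ACTA2 or MYL9 were left out. Of the 19, 12 had a mean signal over all foxes above 18.2, the lower limit for testing, and these covered 8 of the 9 genes.

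Expression was measured with Affymetrix Canine 2 arrays in gum tissue (gingiva) of 8 red foxes (Vulpes vulpes). The foxes were 5 diagnosed as affected by hereditary hyperplastic gingivitis (HHG), an inherited overgrowth of the gum, and 3 unaffected. The affected foxes were 19, 55 and 107 (males) and 381 and 757 (females), and the unaffected foxes 86 and 97 (males) and 402 (female), each named by its number in the labels and each read on 1 array. The probes are dog sequences, the labels give no age, and they do not assign to each fox the season or the way of sampling, which was after euthanasia for some foxes and under anaesthesia for others.

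Smooth muscle cells contract when myosin pulls on actin filaments, and calcium acting through myosin light chain kinase switches the myosin on. A myofibroblast is a fibroblast that has taken up part of this apparatus, above all smooth muscle actin, and in healing and in fibrous overgrowth it draws the collagen matrix together. Pericytes share the vessel's basement membrane with the endothelium. PDGF from the endothelium recruits them through the receptor PDGFRB, and Notch ligands on the endothelium act on NOTCH3 in mural cells.

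The deposited values are linear signals of the MAS5 algorithm, with a trimmed mean of 150.0 on every array. The 42 control sets for bacterial transcripts had a 95th percentile, taken here as background, that lay between 7.42 and 16.6. All 10 epithelial markers that the annotation names were above the lower limit, and their summed signal was 19511 to 29030 for the affected foxes, against 15067 to 33770 for the unaffected. The sum was lowest of all foxes in unaffected fox 86 and highest in unaffected fox 97. In whole tissue, fewer cells of a type and less RNA per cell cannot be told apart. Differences are given as affected minus unaffected on the scale log2(signal + 16), with limma's standard error (SE). The arrays were few, and the median SE over all tested probe sets was 0.23.

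No difference between affected and unaffected gum passed the test in any of the 8 genes tested. At an adjusted p under 0.05 limma called 0 of the 12 tested probe sets, and 0% of all 25754 tested. At an unadjusted p under 0.05 it called 0 of the 12, against 2.69% of all tested. The groups overlapped in each of the 12, whereas 2.43% of all tested probe sets had groups that did not overlap. Mean log2 values were higher in affected foxes for 6 of the 12, against 43.5% of all tested. The order of the mean signals can differ from this. The adjusted p was 0.99992 for each member.

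ACTA2 encodes the smooth muscle actin by which myofibroblasts are recognised. It read 213, 228, 305, 259 and 343 in affected foxes 19, 55, 107, 381 and 757, against 504, 141 and 156 in unaffected foxes 86, 97 and 402. All 5 affected foxes thus lay between the unaffected extremes. The affected mean of 269.5 ± 54.1 (SD, n = 5) was close to the unaffected mean of 267 ± 205 (SD, n = 3). The log2 difference was 0.22 ± 0.37 (SE), with a 95% confidence interval from -0.60 to 1.04. Without unaffected fox 86 it was 0.78, and without unaffected fox 97 or 402 it was -0.085 and -0.021.

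TAGLN encodes transgelin, an actin-binding protein of smooth muscle. Its brightest probe set read 270.1, 207, 434, 284 and 456 in affected foxes 19, 55, 107, 381 and 757, against 734, 183 and 90.9 in unaffected foxes 86, 97 and 402. Fox 86 was again the highest of all 8, and foxes 97 and 402 were the lowest. The log2 difference was 0.40 ± 0.54 (SE, confidence interval -0.79 to 1.60). Leaving out fox 86 gave 1.19, and leaving out fox 97 gave 0.23 and fox 402 gave -0.22. The other TAGLN probe sets differed by 0.056 and -0.071.

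MYH11, the heavy chain of smooth muscle myosin, read 67.4, 47.6, 58.0, 57.3 and 69.0 in affected foxes 19, 55, 107, 381 and 757, against 94.2, 45.7 and 44.9 in unaffected foxes 86, 97 and 402. The order of the unaffected foxes was that of TAGLN. The log2 difference was 0.018 ± 0.23 (SE, confidence interval -0.49 to 0.52), or 0.30 without fox 86 and -0.13 without fox 402. Of the 3 other MYH11 probe sets, all below the lower limit, 1 was above background in 6 foxes and the others in none.

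MYL9, a regulatory light chain of that myosin, read 86.8, 58.3, 124, 97.7 and 103 in affected foxes 19, 55, 107, 381 and 757, against 131, 96.8 and 36.3 in unaffected foxes 86, 97 and 402. Fox 402 stood lowest and fox 86 highest, while fox 97 lay among the affected foxes. The log2 difference was 0.18 ± 0.33 (SE, confidence interval -0.56 to 0.91), and leaving out 1 fox at a time gave from -0.26 (without fox 402) to 0.49 (without fox 86).

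The other contractile genes were read near background. CNN1 encodes calponin, which binds actin and restrains the myosin motor. Its tested probe set read 16.7, 9.81, 21.2, 16.03 and 23.0 in affected foxes 19, 55, 107, 381 and 757, against 18.6, 28.7 and 16.2 in unaffected foxes 86, 97 and 402. It was above background in 7 of 8 foxes and differed by -0.16 ± 0.19 (SE), or -0.016 without fox 97 and -0.068 without affected fox 55. The second CNN1 probe set, below the lower limit, was above background in 4 foxes. It differed by 0.26 ± 0.32 (SE) in a fit without that limit. Both probe sets of DES, the intermediate filament desmin of muscle, were below the lower limit and above background in 1 and 3 foxes. The brighter of them read 34.4 in affected fox 757 and from 4.17 to 9.36 in the other 7 foxes.

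Among the pericyte genes, RGS5 encodes a regulator that shortens G protein signals in mural cells. Its brightest probe set read 48.5, 25.2, 64.3, 37.4 and 96.4 in affected foxes 19, 55, 107, 381 and 757, against 73.6, 58.7 and 42.6 in unaffected foxes 86, 97 and 402. Here the affected foxes spread more widely than the unaffected, with fox 757 highest and fox 55 lowest. The log2 difference was -0.14 ± 0.31 (SE, confidence interval -0.83 to 0.55). Leaving out fox 86 gave 0.0024 and fox 55 gave 0.028, whereas leaving out fox 757 gave -0.33. The other RGS5 probe sets differed by -0.26 and -0.15.

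PDGFRB, the receptor for PDGF, read 2.87, 3.51, 39.9, 15.5 and 42.4 in affected foxes 19, 55, 107, 381 and 757, against 29.8, 21.2 and 3.14 in unaffected foxes 86, 97 and 402. Foxes of either group lay well above background and others of either group below it. It was above background in 5 of 8 foxes and differed by 0.037 ± 0.45 (SE, confidence interval -0.96 to 1.03). Leaving out 1 fox at a time gave from -0.33 to 0.30, the lowest without fox 402 and the highest without fox 86. The sign was also negative without fox 107 or 757, at -0.16 and -0.17. The second PDGFRB probe set was above background in 1 fox. NOTCH3, the mural cell receptor of the Notch family, read 23.1, 27.9, 23.7, 33.4 and 21.8 in affected foxes 19, 55, 107, 381 and 757, against 31.2, 36.4 and 26.0 in unaffected foxes 86, 97 and 402. It varied less between foxes than most probe sets, with 7.48% of all tested having a smaller residual SD, and differed by -0.17 ± 0.17 (SE, confidence interval -0.54 to 0.20), or -0.091 without fox 97.

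**Figure D1:**
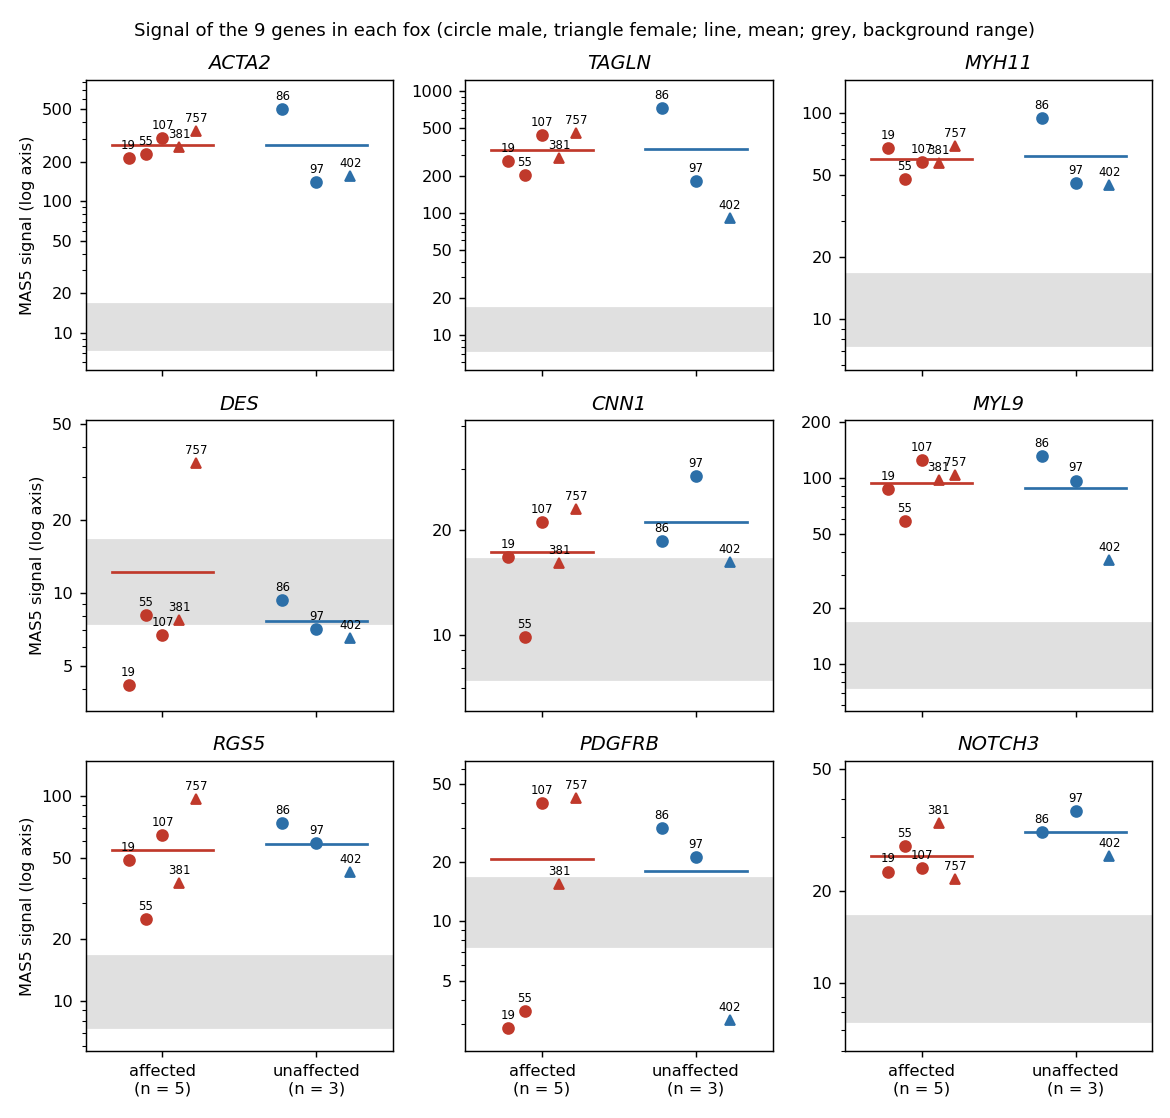
MAS5 signal (log axis) of the brightest probe set of each gene in every fox, affected on the left and unaffected on the right, with the fox number beside each point, the group mean as a line and the range of the array backgrounds, 7.42 to 16.6, in grey. For ACTA2, TAGLN and MYH11, unaffected fox 86 is the highest point and foxes 97 and 402 lie at the lower end.

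The spread among foxes was wide for ACTA2 and TAGLN. The residual SD within the groups was 0.60 for ACTA2 and 0.91 for the brightest TAGLN probe set on the log2 scale, larger than in 89.2% and 97.4% of all tested probe sets. For MYL9 it was 0.53 (83.8%), for MYH11 0.31 (49.1%) and for the dim PDGFRB 0.75 (94.8%). Most of the spread of ACTA2, MYH11 and the brightest TAGLN probe set lay in the unaffected group. The SD in affected and unaffected foxes was 0.27 and 0.96 for ACTA2, and 0.17 and 0.49 for MYH11. For TAGLN it was 0.46 and 1.44 in the brightest probe set, and 0.59 and 1.08, and 0.69 and 0.90, in the others. The SD was larger in unaffected foxes for 8 of the 12 member probe sets, against 44.5% of all tested. Unaffected fox 86 read highest of all foxes in 7 of the 12, against 17.8% of all tested. The same fox had the lowest summed signal of epithelial markers, 15067, and the part of tissue content in this spread was not tested. Affected fox 55 read lowest in 5 and unaffected fox 402 in 3 of the 12, and fox 55 or 402 read lowest in 30.1% of all tested.

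For ACTA2, MYL9 and the brightest probe set of TAGLN, leaving out each of the 8 foxes in turn changed the sign of the difference only for unaffected foxes, fox 402 for each of these genes and also fox 97 for ACTA2. The sign of MYH11 changed without either of these foxes and also without affected fox 19 or 757, at -0.018 and -0.025. The tested CNN1 probe set stayed negative whichever fox was left out, while the dimmer second one stayed positive. Without fox 86, each affected fox read above both remaining unaffected foxes for 3 of the 12 member probe sets, those of ACTA2 and MYH11 and the brightest of TAGLN, against 4.02% of all tested, and 0 of the 12 lay below them, against 5.46%. These counts were added after seeing the data, and fox 86 was the highest fox in those 3 probe sets. Leaving it out favours them, so the share over all tested probe sets gives no test of them. Limma called none of the 12 without fox 86, with 2 at an unadjusted p under 0.05 and a smallest adjusted p of 0.955. The share over all tested probe sets was not counted for that fit, so the 2 cannot be read against it. Without fox 402 the groups overlapped in all 12, against 2.92% of all tested that lay above and 5.46% that lay below.

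**Figure D2:**
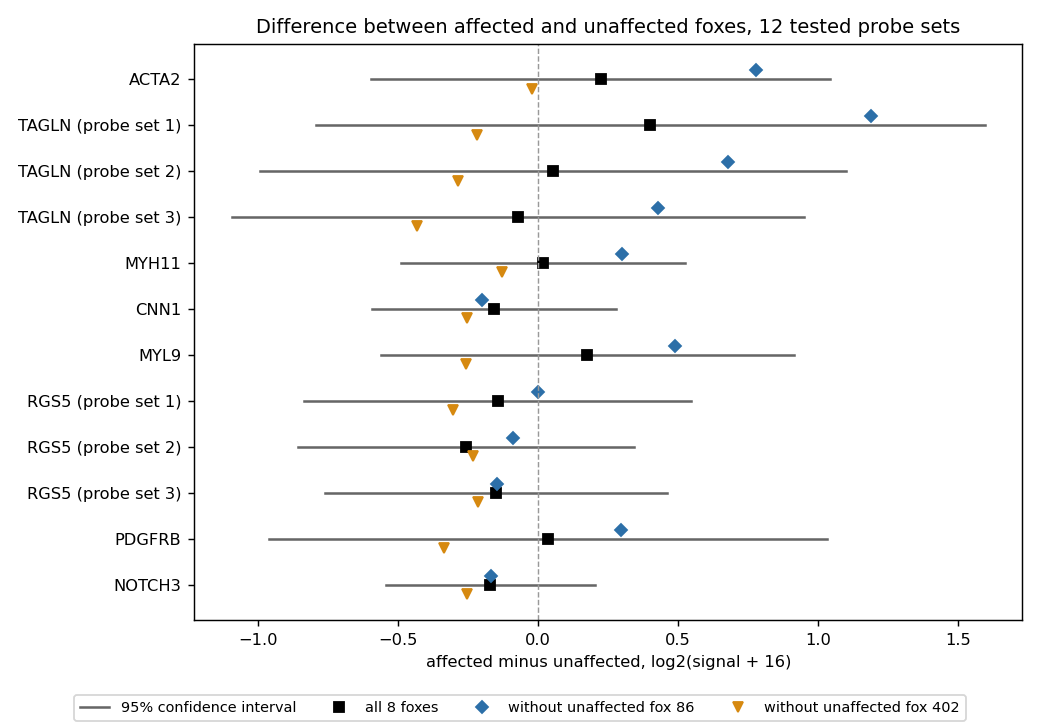
Log2 difference, affected minus unaffected, of the 12 tested probe sets, with all 8 foxes (square, with its 95% confidence interval) and without unaffected fox 86 or 402. Every interval includes 0. Without fox 86 the brightest TAGLN probe set moves to 1.19, and without fox 402 it moves to -0.22.

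ACTA2, TAGLN and MYH11 varied together from fox to fox, as did TAGLN and MYL9. Over the 8 foxes, ACTA2 and TAGLN had a Pearson r of 0.93 (two-sided exact permutation p = 0.00171, 0.0184 after Benjamini-Hochberg adjustment over 15 pairs) and a Spearman rho of 0.95 (exact permutation p = 0.00114, adjusted 0.0167). Without the foxes farthest from the median of ACTA2, 86 and 97, r was 0.96. The 15 pairs are those among the 6 genes read above background in every fox, which share the 8 arrays and so any difference in tissue or RNA between them.

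TAGLN also tracked the myosin genes. Its r was 0.88 with MYH11 (exact permutation p = 0.00506, adjusted 0.0190; rho 0.93, p = 0.00223, adjusted 0.0167) and 0.88 with MYL9 (exact permutation p = 0.00246, adjusted 0.0184; rho 0.90, p = 0.00456, adjusted 0.0228). Without foxes 402 and 86, which were farthest from the median of TAGLN, these were 0.76 and 0.66. For ACTA2 with MYH11, r was 0.88 (exact permutation p = 0.00469, adjusted 0.0190) and rho 0.83 (p = 0.0154, adjusted 0.0577), with r at 0.67 without foxes 86 and 97. ACTA2 and MYH11 had r of 0.66 and 0.67 with MYL9, each with an adjusted exact permutation p of 0.189. The 11 pairs other than those 4 had an adjusted exact permutation p of at least 0.189 for r. RGS5 had r from 0.49 to 0.62 with the 4 contractile genes, and NOTCH3 from -0.27 to 0.11 with the other 5.

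The foxes also differed in a control for RNA quality. Signals of the 5' probe set of beta-actin, which is lower when transcripts are degraded or incompletely copied, fell in separate ranges. It read 7831 to 8868 in a high set of 2 affected (107, 757) and 2 unaffected foxes (86, 97). It read 1354 to 2336 in a low set of 3 affected foxes (19, 55, 381) and 1 unaffected (402). The mean log2 value was higher in the set of high 5' actin for 12 of the 12 member probe sets, against 52.4% of all tested. In 3 of the 12, the tested ones of PDGFRB and CNN1 and the brightest of RGS5, each fox of that set read above each fox of the other, against 5.29% of all tested. The reverse order held in 0 of the 12, against 4.53%. The 12 cover 8 genes, and the mean log2 difference, high minus low set, ran from 0.015 for NOTCH3 to 1.16 for PDGFRB. PDGFRB read 21.2 to 42.4 in the high set and 2.87 to 15.5 in the low set, and RGS5 58.7 to 96.4 and 25.2 to 48.5. ACTA2 overlapped, with 141 to 504 and 156 to 259.

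Each set held 4 foxes, too few for a correlation within it, and values were centred within the sets instead. The r of TAGLN was then 0.93 with ACTA2, 0.87 with MYH11 and 0.80 with MYL9, while that of RGS5 was 0.26, 0.23, 0.52 and 0.081 with ACTA2, TAGLN, MYH11 and MYL9. Between affected and unaffected foxes, the difference within the high and the low set was 0.25 and 0.53 for ACTA2, 0.25 and 1.32 for the brightest TAGLN probe set, -0.056 and 0.26 for MYH11, 0.0074 and 0.87 for MYL9, 0.22 and -0.17 for RGS5, 0.47 and 0.24 for PDGFRB, -0.049 and -0.10 for CNN1 and -0.36 and 0.067 for NOTCH3. The low set has fox 402 as its only unaffected fox. When the ratio between the 5' and 3' actin signals (log2) was a covariate, limma called 0 of the 12 (1 at an unadjusted p under 0.05). The share over all tested probe sets was not counted for that fit. In that fit ACTA2 differed by 0.43, the brightest TAGLN probe set by 0.84, PDGFRB by 0.56 and RGS5 by 0.19, the last with its sign turned.

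Sex was compared with group in the fit. Limma called 0 of the 12 member probe sets between females and males at an adjusted p under 0.05, against 0.00388% of all tested, and 0 at an unadjusted p under 0.05, against 2.29%. The female minus male differences ran from -0.47 for the brightest TAGLN probe set to 0.16 for the second of RGS5. The difference of the disease effect between females and males was called in 0 of the 12 and in 0% of all tested, and at an unadjusted p under 0.05 in 1 of the 12, against 2.47%. That was MYL9, with an effect larger by 1.49 ± 0.52 (SE) in females, where fox 402, the lowest for this gene, is the only unaffected animal. The brightest TAGLN probe set and PDGFRB had larger values that missed this threshold, 2.15 ± 0.94 and 1.76 ± 0.85 (SE). In males alone, the difference between affected and unaffected foxes was negative for 12 of the 12, and the share over all tested probe sets was not counted. Unaffected males 86 and 97 are both in the set of high 5' actin. Of the affected males, 107 is in that set and 19 and 55 are in the low set. Group and 5' actin are therefore mixed in this comparison, and their parts were not tested.

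The genes whose pattern over the foxes was most like the members were ranked by Pearson r with the mean of the 9 genes, both centred within the disease groups, among 5896 genes with a mean signal of at least 100. The first 10 were SERTAD4, TENT5C, TPM1, HSD17B7, WBP11, COL4A1, TPM2, KXD1, TNFAIP8 and MYLK, with r from 0.96 to 0.98. Over the genes ranked, the 99th percentile was 0.91, the median -0.063, and the 90th percentile 0.70. TPM1 and TPM2 encode tropomyosins, which lie along the actin filament, MYLK the kinase that switches on smooth muscle myosin, and COL4A1 a collagen of basement membranes. The pattern was not particular to contractile genes. By the same measure r was 0.94 for the endothelial marker PECAM1, 0.91 for the collagen COL3A1, and 0.90 and 0.87 for the fibroblast markers THY1 and LUM. Others went the other way, with -0.69 for the fibroblast marker P4HB, and -0.49 and -0.36 for the contractile genes SMTN and FLNA. Centred within the sets of 5' actin, r was 0.97, 0.95, 0.81 and 0.92 for TPM1, TPM2, MYLK and COL4A1. It was 0.86, 0.80, 0.82 and 0.91 for SERTAD4, TENT5C, HSD17B7 and TNFAIP8, and 0.061 for WBP11 and -0.30 for KXD1. Without any centring, r was 0.67 for WBP11 and 0.33 for KXD1, and from 0.92 (MYLK) to 0.97 (TPM1) for the others of the 10.

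TPM2 read 79.7, 71.7, 199, 148 and 199 in affected foxes 19, 55, 107, 381 and 757, against 262, 76.4 and 36.4 in unaffected foxes 86, 97 and 402. MYLK read 59.5, 37.9, 119, 85.9 and 161, against 299.8, 71.1 and 57.3 in the same unaffected foxes, and TPM1 772, 599.9, 1064, 876 and 1165, against 1550.2, 701 and 496. In all 3 genes fox 86 was the highest of the 8 foxes, and foxes 107 and 757 were the highest of the affected.

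**Figure D3:**
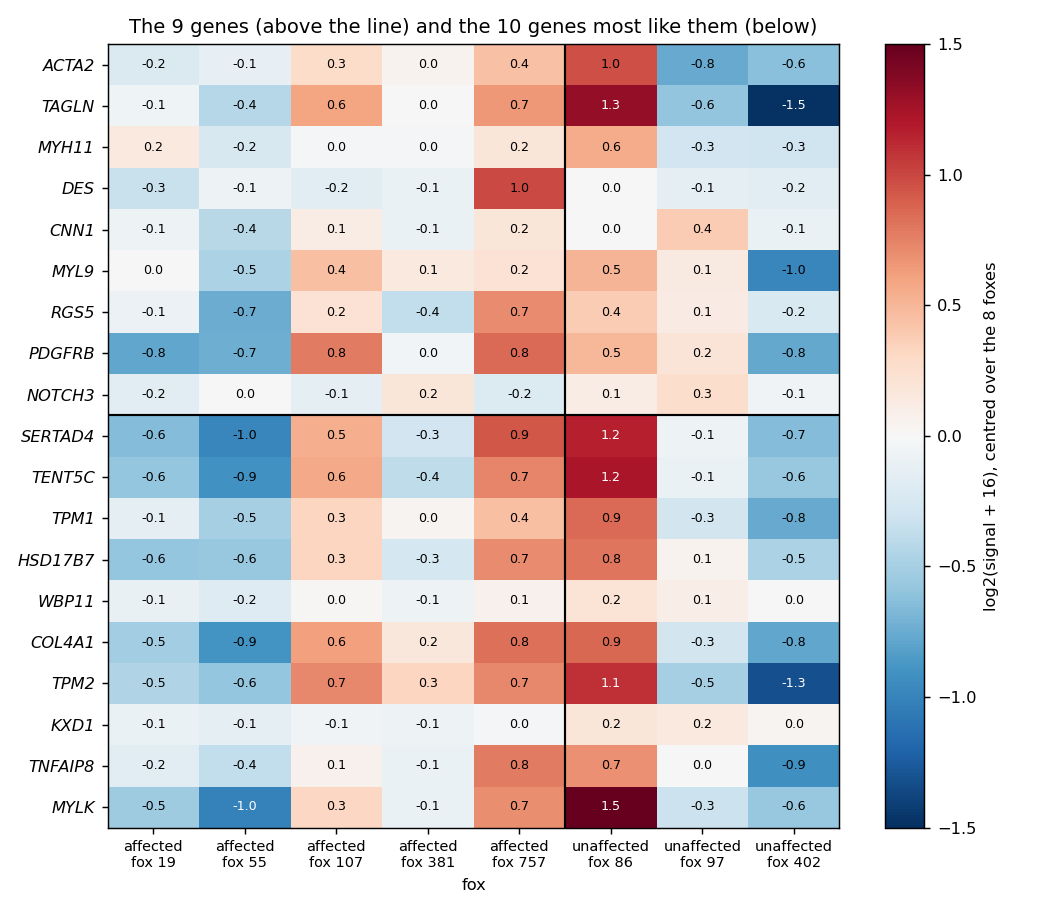
Log2(signal + 16) centred over the 8 foxes for the 9 genes (above the line) and the 10 genes ranked most like their mean (below), affected foxes left of the vertical line and unaffected foxes right of it. The ranking used values centred within the disease groups. Without that centring, r with the mean was 0.67 for WBP11 and 0.33 for KXD1. TAGLN runs from 1.3 in unaffected fox 86 to -1.5 in unaffected fox 402, and TPM1, TPM2, MYLK and COL4A1 are highest in fox 86 as well.

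Related genes were taken from lists, with the brightest probe set standing for each gene. Here and for each list below, a higher mean is a higher mean log2 value, which need not be a higher mean signal. Over all 10848 tested genes, 45.3% had a higher mean in affected foxes, the median difference was -0.027, and limma called 0 at an adjusted p under 0.05, with 136 higher and 141 lower at an unadjusted p under 0.05. It called 0 genes in either direction in each list described next, and the lists of pericyte markers, PDGF, Notch and RGS genes hold members too. Of 20 tested genes of the smooth muscle contractile and cytoskeletal list, 13 had higher means (median 0.038). They included NEXN, which binds actin filaments, at 0.42 ± 0.19 (SE) with its second probe set, of like signal, at 0.14, and ACTG2, the enteric smooth muscle actin, at 0.29 ± 0.25, whose second probe set differed by -0.070. SMTN, smoothelin, differed by -0.41 ± 0.35, or -0.75 without unaffected fox 86 and -0.22 without unaffected fox 97.

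The list of genes that control the contractile programme had higher means in 3 of 14 (median -0.12). MYOCD, which encodes the cofactor of serum response factor in smooth muscle, was below the lower limit. MRTFB, a related cofactor that senses free actin, averaged 18.4 ± 5.56 over the affected foxes (SD, n = 5), close to background, against 31.1 ± 3.98 over the unaffected (SD, n = 3), with no overlap. It differed by -0.46 ± 0.19 (SE). Its second probe set differed by -0.17. KLF4, known in mouse to repress contractile genes, differed by 0.36 ± 0.48, and by -0.37 without fox 86.

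Of 9 tested pericyte markers, 4 had higher means (median -0.080), and 7 more that the annotation names, CSPG4, ABCC9 and KCNJ8 among them, were below the lower limit. NDUFA4L2, a mitochondrial protein induced by low oxygen, read 1124, 919, 1323, 1051 and 1166 in affected foxes 19, 55, 107, 381 and 757, against 502, 887 and 828.6 in unaffected foxes 86, 97 and 402. The groups did not overlap, as in 2.43% of all tested probe sets, and the difference was 0.62 ± 0.22 (SE), or 0.37 without fox 86. NDUFA4L2 did not follow the members. Its r with the mean of the 9 genes, centred within the disease groups, was -0.27, and it was lowest in fox 86. Other pericyte markers had smaller differences of either sign, with ENPEP at -0.27 ± 0.32, CD248 at -0.15 ± 0.24 and COX4I2 at 0.12 ± 0.24 (SE). The endothelial markers, which share the vessel with pericytes, had higher means in 2 of 12 (median -0.24). Their summed signal was 1022 to 1723 for the affected foxes, against 1048 to 2124 for the unaffected, with fox 86 highest, and their part in the pericyte values was not tested.

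Among ligands and receptors upstream of the mural cell receptors, 2 of 6 genes of the PDGF list had higher means (median -0.22). PDGFB, the ligand that recruits pericytes, differed by 0.098 ± 0.16 (SE), and PDGFC by -0.68 ± 0.35, or -1.09 without fox 86. In the Notch list 1 of 13 was higher (median -0.17). JAG1, a Notch ligand of endothelium, smooth muscle and epithelium, read 219, 77.1, 408, 158 and 265 in affected foxes 19, 55, 107, 381 and 757, against 292, 556 and 400.2 in unaffected foxes 86, 97 and 402. All affected foxes but fox 107 lay below all unaffected ones. JAG1 differed by -0.96 ± 0.43 (SE), and its other probe sets by -0.81 and -0.67. NOTCH4, an endothelial receptor, differed by -0.67 ± 0.29, and HEYL, a Notch target in mural cells, by 0.27 ± 0.22.

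The RGS list had higher means in 6 of 11 genes (median 0.038). RGS2, which restrains the receptors that make vessels contract, read 345, 634, 1447, 952 and 1158 in affected foxes 19, 55, 107, 381 and 757, against 769, 196 and 284 in unaffected foxes 86, 97 and 402. Fox 86 was higher than 2 of the affected foxes. The difference was 1.17 ± 0.51 (SE), or 1.72 without fox 86 and 0.77 without fox 97, and the other RGS2 probe sets differed by 0.88 and 0.83. In the list of myofibroblast matrix and activation genes, 10 of 16 had higher means (median 0.052). THBS1, a matrix protein that can activate latent TGF-beta, differed by 0.87 ± 0.38 with its second probe set at 0.87 and another, near background, at -0.060. POSTN, periostin, differed by -0.41 ± 0.34, or -0.15 without fox 86. The summed signal of this list was 14366 to 32202 for the affected foxes, against 13457 to 34025 for the unaffected, with fox 86 highest of the 8 and fox 402 lowest.

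**Figure D4:**
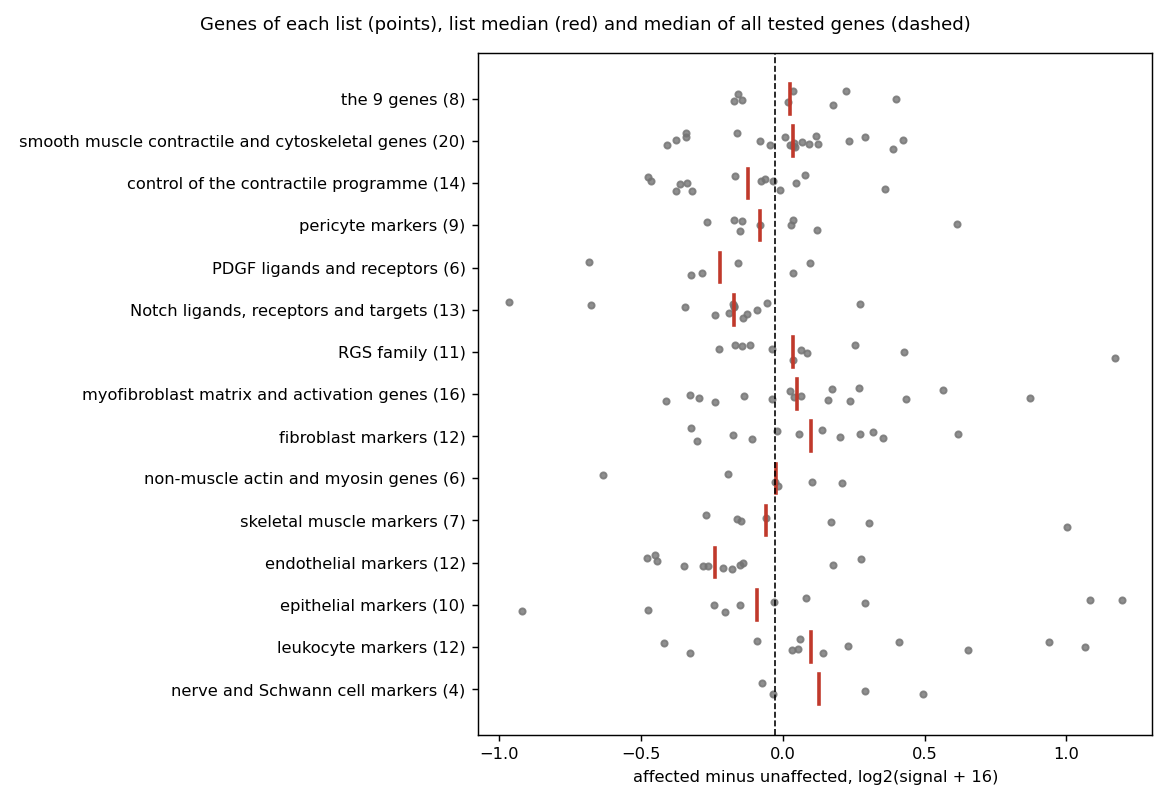
Log2 difference, affected minus unaffected, of each tested gene (point) in the 9 genes and the related and marker lists, with the number tested in brackets, the list median in red and the median of all tested genes, -0.027, as a dashed line. The endothelial median, -0.24, lies farthest from 0.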

How the data were processed

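The authors deposited 1 linear intensity per probe set and fox. The submitters' processing notes name MAS5 and no version, and its scaling target is not given in the sources used here. Each intensity was turned into log2(signal + 16), which shrinks the differences of dim probe sets, and arrays were not normalized again. Leaving out controls and the dimmest 40% by mean, 25754 probe sets were fitted with limma 3.58.1 in R 4.3.3 (lmFit, eBayes, Benjamini-Hochberg over all). The fit was run on simulated arrays with independent normal noise of the same SD in both groups. In the real arrays the SD differed between groups for some members, so the simulation does not tell how often real differences are called.

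Members and lists were chosen with earlier results of these data known, so no list was tested. Named from the lists were at most 2 genes per direction with the smallest p, and from the likeness ranking the first 10. The table names genes of the dog array, and 1 probe set per gene means that with the highest mean. The labels call each array a separate fox. Alternatives covered the offset, normalization, filter, covariates, prior, array weights, subsets of foxes and each fox left out. The counts of groups that do not overlap without fox 86 or 402 were added after seeing the data.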

Additional observations from a re-analysis of the deposited data

Results flagged for a closer look

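In the affected group 1 fox stood far from the other 4 in 8 of 58 probe sets or scores examined, measured as its gap to the nearest fox over the group's range. For independent normal values chance gives about 1 in 20. The items examined share the same foxes, and some were picked by their p. The share over all tested probe sets was not counted, so 8 of 58 cannot be read against that rate. Unaffected foxes, being 3, were not examined. Among the member probe sets this held for DES in fox 757, at 34.4 with the next affected fox at 8.12 (share 0.805), and for a MYH11 probe set below background in every fox, at 5.74 in fox 55 (0.793). Fox 55 was also low for ENPEP (8.70, share 0.820), PDGFC (34.5, share 0.757) and TIE1 (14.3, share 0.788). Fox 757 was low for NEXN (15.8, share 0.885) and HEYL (57.6, share 0.801), and fox 107 for PDGFB (40.6, share 0.731).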

How the results depend on the processing

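No paired analysis was possible because the fox numbers in the labels differ between the groups. Over 21 alternatives limma called 0 member probe sets between affected and unaffected foxes, with a smallest adjusted p of 0.955. At an unadjusted p under 0.05 it gave 0 to 2. Over 20 alternatives it called 0 of 89 genes outside the members, those of the related lists and of non-muscle actin and myosin. At an unadjusted p under 0.05 it gave 2 to 7 of the 89, against 6 in the fit as reported. In the fit as reported, 136 higher and 141 lower of all 10848 tested genes met that threshold. Shares over all tested were not counted for the alternatives. The sex comparison gave 0 calls over 12 alternatives and the interaction 0 over 2. The mean over the 9 genes differed by 0.062, where the SD within groups was 0.39. It ran from -0.18 (without fox 402) to 0.32 (without fox 86) with each fox left out, and was -0.30 in males alone, 0.34 in the foxes of low 5' actin, and 0.31 with the actin ratio as a covariate. The sign of ACTA2 changed in 3 and that of the brightest TAGLN probe set in 2 of 21 alternatives. For the brightest probe set of the other genes tested it changed in 6 for MYH11 and in 5 for PDGFRB and RGS5. It changed in 2 for MYL9, in 1 for NOTCH3 and in 0 for CNN1. The 5 affected and 3 unaffected arrays limit the precision, and for CNN1, DES and PDGFRB the signal over background does too.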

Other observations

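Skeletal muscle markers, which would mark fibres beneath the gum, were for the most part not read above the lower limit: of 24 named by the annotation 17 were below it, the myosins MYH1, MYH2 and MYH7 among them. TNNI2, a troponin of fast muscle, read 173, 1308, 153, 325 and 256 in affected foxes 19, 55, 107, 381 and 757, against 124, 134 and 198 in unaffected foxes 86, 97 and 402. Fox 55 alone was far above the rest, and the other 6 tested muscle markers did not go with it: their summed signal was 159.6 in fox 55, within the range of 115 in fox 402 to 271 in fox 86. In that fox the brighter DES probe set read 8.12, below its background of 16.6.

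Fibroblast markers had higher mean log2 values in affected foxes in 7 of 12 genes, with a median log2 difference of 0.098. Limma called 0 of these markers (0 at an unadjusted p under 0.05). Their summed signal was 16022 to 25073 for the affected foxes, against 14534 to 23891 for the unaffected. Non-muscle myosin MYH9, which cells use for contraction outside muscle, differed by -0.63 ± 0.39 (SE), or -0.21 without unaffected fox 97, and its 3 other probe sets differed by -0.32 to -0.87. MYL6, the light chain shared by muscle and non-muscle myosin, differed by 0.21 ± 0.16.

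Of the other cell types, leukocyte markers had higher mean log2 values in affected foxes in 9 of 12 genes (median 0.10). The count was 2 of 4 for nerve and Schwann cell markers (median 0.13) and 4 of 10 for epithelial markers (median -0.090). Limma called 0 genes in these lists at an adjusted p under 0.05, and 2 leukocyte genes at an unadjusted p under 0.05.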
